A study of Mus musculus with 4 samples.

Results

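The outermost 10% of the tibialis anterior at each end was set against the next 10% of the length, just inside it, in 4 mouse muscles measured by TOMO-seq. In TOMO-seq a tissue is cut into serial cryosections along one axis and the RNA of every section is sequenced under its own barcode, so that a profile along the axis is obtained. The tibialis anterior lifts the foot and in mice is made almost wholly of fast fibres. All 4 muscles formed 1 group (tissue: tibialis anterior muscle), and the strain, age, sex, genotype and any treatment of the mice are not given in the labels. The labels also do not state that the muscles came from separate animals, so the p-values measure only the spread among these samples, which may be technical.

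Sections that the authors had kept in their filtered tables were placed at a relative position from 0 for the first kept barcode to 1 for the last kept barcode of that muscle. Of 171 kept sections, 39 were tips (position under 0.1 or at least 0.9) and 33 were just inside (0.1 to under 0.2, or 0.8 to under 0.9). The first tip held 19 sections and the first just-inside zone 16, while the last tip held 20 and the last just-inside zone 17. Which end is proximal is not given in the labels, so "first" means the low barcode numbers. The transcripts of each zone were summed per muscle, which gave 16 sums of 835623 to 3418416 transcripts, and levels are given in CPM, the usual share of a library's transcripts scaled by the trimmed mean of M-values (TMM). A gene was called at an adjusted p under 0.05 (edgeR quasi-likelihood F-test, Benjamini-Hochberg adjustment over all 6103 genes tested).

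At its ends a skeletal muscle passes into connective tissue. Muscle fibres attach to tendon at the myotendinous junction, where tenocytes and other fibroblasts lay down collagens, small proteoglycans and lubricin. Vessels enter the belly as arteries wrapped in smooth muscle and branch into capillaries whose walls carry pericytes. Fibres also differ along and across the muscle, with fast glycolytic fibres that contract on sugar breakdown and slower oxidative fibres that rely on mitochondria and fat. A comparison of the outermost tissue with its neighbour asks which of these components change over the last short distance of the muscle.

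Few genes were called over that distance. With both ends averaged, 4 of 6103 genes were called (0.0655%), all lower in the tips, and 513 genes had an unadjusted p under 0.05 (8.41%). At the first end 2 genes were called (0.0328%), Acta2 and Tagln, both lower in the tip, and 6.8% of genes had an unadjusted p under 0.05. At the last end 3 were called (0.0492%), with the tendon and joint matrix genes Prg4 and Chad higher in the tip (0.0328%) and the muscle stress gene Ankrd2 lower (0.0164%), and 5.64% of genes had an unadjusted p under 0.05. No gene (0%) was called for a difference between the first-end and the last-end tip effect by edgeR, where 259 genes (4.24%) had an unadjusted p under 0.05, or by DESeq2, which also called 0 and where 84 had one. Acta2 differed between the ends by -1.08 ± 0.27 (edgeR adjusted p = 0.60), not called here but called under 4 alternatives. They were no count filter (-0.99, edgeR adjusted p = 0.010), just inside widened to 0.3 and 0.7 (-1.13, 0.0088), sums thinned to the shallowest (-1.46, 0.013) and muscles 1 and 2 alone (-1.62, 0.042).

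**Figure D1:**
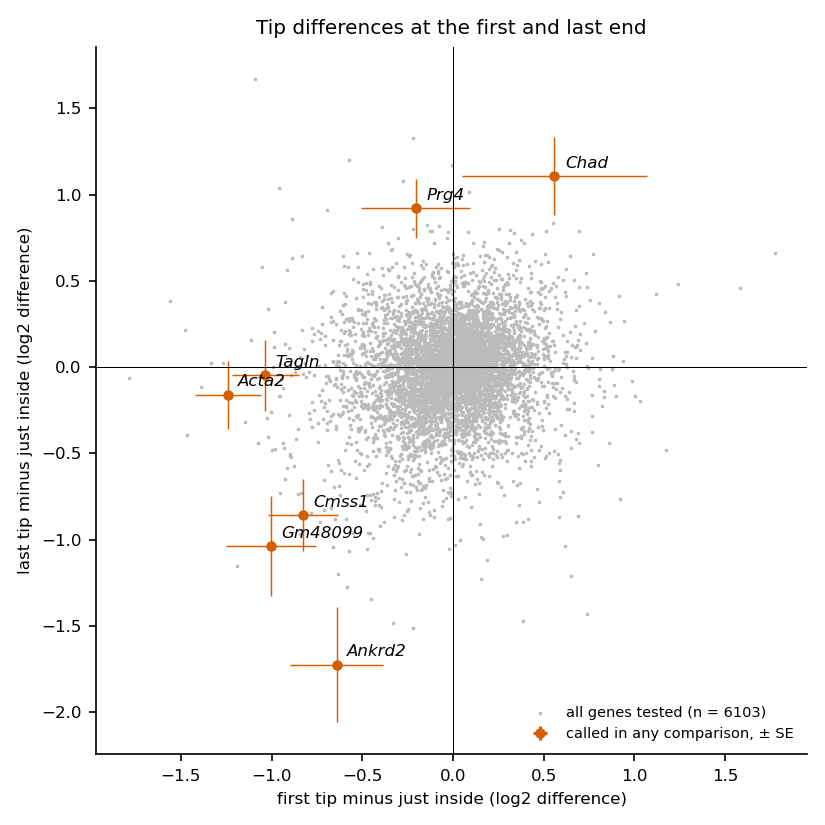
Log2 difference between tip and just inside at the first end (horizontal axis) against the same at the last end (vertical axis) for the 6103 genes tested, in grey, with the 7 genes called in any comparison in orange with their standard errors. Acta2 and Tagln lie to the left near 0 on the vertical axis, Prg4 and Chad lie at the top, Ankrd2 at the bottom, and Cmss1 and Gm48099 are below 0 at both ends.

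Tip sections held fewer transcripts than sections just inside, except at the first end of muscle 2. Single tip sections held 86744 to 835070 transcripts with a median of 239283, against 185950 to 1137235 with a median of 550874 just inside. The log2 ratio of the mean per section, averaged over both ends, was -0.75 ± 0.46 (SD, n = 4), lower in 4 of 4 muscles (two-sided exact sign-change permutation p = 0.13, the smallest that 4 muscles allow). The last end alone gave -0.99 ± 0.38, lower in 4 of 4 muscles, and the first end -0.50 ± 0.67 (exact permutation p = 0.38), where muscle 2 averaged 364790 transcripts per section in the tip and 293480 just inside. Genes with a transcript numbered 4663 to 11591 per section in the tips, against 7607 to 13721 just inside. Mitochondrially encoded transcripts made up 51.8% to 74.8% of a tip section and 48.7% to 75.8% of a section just inside, and the share was higher in the tips at both ends in muscles 1 to 3 and lower in muscle 4. With mitochondrially encoded genes left out of the tests and library sizes, all 9 called differences were still called. With sections under 150000 transcripts left out, an alternative added after seeing the data, 8 of the 9 were, and Prg4 at the last end was 0.85 (edgeR adjusted p = 0.14). With all sums thinned to the shallowest, Acta2 at the first end (-1.46) and with both ends averaged (-0.72), Cmss1 (-0.92) and Gm48099 (-1.10) were called by edgeR and the other 5 were not, with adjusted p of 0.054 for Tagln, 0.082 for Ankrd2 at the last end, 0.15 for Ankrd2 with both ends averaged, 0.17 for Prg4 and 0.71 for Chad.

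**Figure D2:**
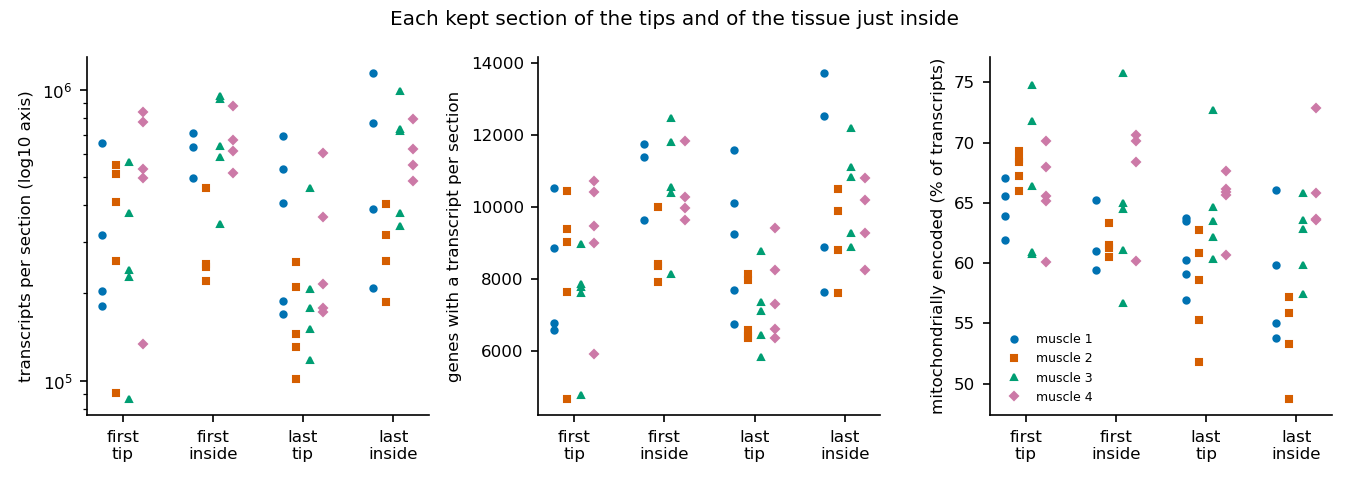
Transcripts per section (log10 axis), genes with a transcript per section and percent of transcripts that were mitochondrially encoded in each tip and just-inside section, by muscle, with each tip left of its just-inside zone. Tip sections reach down to 86744 transcripts and 4663 genes, below any section just inside.

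Both zones carried the transcripts of a fast skeletal muscle. The 13 fast fibre genes summed to 83593 to 119620 CPM in the first tip and 80866 to 95306 CPM just inside it, and to 87987 to 139030 CPM in the last tip and 83418 to 133200 CPM just inside it. These sums are uncertain, since Atp2a1 of that list used at least 90% of the possible molecular tags in 139 of 171 kept sections. Skin markers summed to at most 2.41 CPM in any tip and 2.43 CPM in any just-inside zone, and cartilage and bone markers to at most 9.90 CPM in a tip and 13 CPM just inside. None of the genes of these last lists had enough transcripts to be tested.

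Smooth muscle actin was the gene with the largest called change at the first end. Acta2 encodes the actin of vascular smooth muscle and of contractile fibroblasts, and lies at chr19:34241090-34255590 on the minus strand (GRCm38). It stood at 52, 59.7, 26.7 and 69.8 CPM in the first tip of muscles 1 to 4, against 249, 94.9, 50.9 and 143 CPM just inside. Every tip was below the tissue just inside it in its own muscle, but the ranges overlap, because the zone inside muscle 3 lay below the tips of muscles 1, 2 and 4. The means were 52 ± 18.4 CPM in the tip and 134 ± 85 CPM just inside (SD, n = 4), a log2 difference of -1.24 ± 0.18 (SE; edgeR adjusted p = 1.33e-04). The per-muscle differences were -2.24, -0.66, -0.91 and -1.02. In tissue of this kind fewer cells of a type and less RNA per cell cannot be told apart.

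Part of that difference lay in the zone just inside, which stood above the rest of the muscle in 2 of the 4 muscles. Away from both ends, in sections at positions 0.2 to under 0.8, Acta2 was at 107, 106, 73.5 and 67.5 CPM in muscles 1 to 4. The first just-inside zone was above that level in muscles 1 and 4 and below it in muscles 2 and 3, while the first tip was below it in muscles 1, 2 and 3. Single sections reached 386 CPM just inside in muscle 1, against at most 98.2 CPM in any of the 19 first-tip sections. At the last end Acta2 did not pass the test, with 84.5, 92.9, 38.4 and 37.8 CPM in the tip and 87.2, 80.8, 46.1 and 55.9 CPM just inside (log2 difference -0.16 ± 0.20, edgeR adjusted p = 0.98). With both ends averaged it was called, at -0.70 ± 0.13 (SE; edgeR adjusted p = 0.00684).

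The fall of Acta2 at the first end was not called without muscle 1, where it was -0.87 (edgeR adjusted p = 0.070), and the both-ends call was also lost without that muscle (-0.53, edgeR adjusted p = 0.30). Muscles 1 and 2 used one set of section barcodes and muscles 3 and 4 another. The pairs also differed in Xist, the RNA that female cells make from the inactive X chromosome, with 30 to 126 transcripts in each of the 8 sums of muscles 1 and 2 and 0 in each of the 8 sums of muscles 3 and 4. Barcode set and sex therefore cannot be told apart in any value given by pair here. Within the pairs the first-end difference of Acta2 was -1.56 in muscles 1 and 2 and -0.91 in muscles 3 and 4, and called in both pairs. With both ends averaged it was -0.75 in muscles 1 and 2, not called, and -0.70 in muscles 3 and 4, called.

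The start of Acta2 is shown because its promoter is known for CArG boxes, the elements that serum response factor binds in smooth muscle genes. In the RefSeq promoter window of GRCm38.p6 the 250 bases before the Acta2 start held 2 matches to the CArG box with 1 mismatch and none without a mismatch. Among all 32851 promoters 8.59% held a match with up to 1 mismatch and 1.47% held one without. The first match begins 84 bases before the RefSeq start (chr19:34255438-34255467, minus strand) and the second 34 bases before it (chr19:34255388-34255417, minus strand). GENCODE starts the gene further upstream, so both lie inside its span of the gene. The 10 bases of each match are in capitals.
Acta2, upstream match: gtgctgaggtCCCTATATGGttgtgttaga
Acta2, downstream match: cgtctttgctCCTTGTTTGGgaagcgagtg
A match describes these letters only. The table used holds no window for Tagln.

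Tagln, which encodes the actin-binding protein SM22 alpha of smooth muscle, was lower in the same tip. It lies at chr9:45929619-45936058 on the minus strand. The first tip had 10.7, 13.8, 20.6 and 81.2 CPM in muscles 1 to 4, against 35, 21.1, 48 and 162 CPM just inside. Muscle 4 stood far above the others in both zones, and the tip was the lower zone in 4 of 4 muscles. The log2 difference was -1.03 ± 0.18 (SE; edgeR adjusted p = 0.00328). At the last end Tagln was at 31.1, 19, 23.4 and 58.7 CPM in the tip and 19, 26.7, 32.7 and 63.5 CPM just inside, higher in the tip of muscle 1 and lower in the others (-0.05 ± 0.20, edgeR adjusted p = 0.99). Without muscle 3 the first-end difference was -1.0 and not called (edgeR adjusted p = 0.11). It was -1.18 in muscles 1 and 2, not called, and -0.99 in muscles 3 and 4, called, and with tips of 15% of the length it was -0.53 and not called. Tagln overlaps Pcsk7 and Gm48529 on the opposite strand, and since the use of strand in counting is not given in the sources used here, their reads cannot be told apart from those of Tagln.

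Of the 12 markers listed for smooth muscle and pericytes 7 had enough transcripts to be tested. At the first end 2 of the 7, the same Acta2 and Tagln, were called lower and none higher. Among all 6103 genes 2 were called lower there (0.0328%) and 0 higher. This list too was chosen with earlier results of these data known, so the calls within it are not independent support for a change of smooth muscle genes. The median log2 difference of the 7 was -0.70 at the first end and -0.09 at the last end, beside 0.01 and -0.01 over all genes tested. The first-end medians of the single muscles were -1.21, -0.48, -0.20 and -0.28, with muscle 1 the lowest, and without muscle 1 the median was -0.29. Mylk, the kinase that switches on smooth muscle myosin, had 11.5, 9.42, 11.4 and 14 CPM in the first tip and 28, 10.5, 19.1 and 25.8 CPM just inside. It was the lower zone in every muscle but missed the threshold (-0.83 ± 0.20, edgeR adjusted p = 0.13).

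Myh11, the smooth muscle myosin heavy chain, had 16.5, 19.5, 20.6 and 54 CPM in the first tip and 82.9, 27.6, 23.8 and 65.6 CPM just inside, with a log2 difference of -0.70 ± 0.22 (edgeR adjusted p = 0.49). The gap in muscle 1 was wider than in the others, which lay between -0.48 and -0.20. The pericyte gene Rgs5 differed little, with 48.7, 40.8, 50.3 and 50.4 CPM in the first tip and 54.4, 47.8, 50.9 and 60.2 CPM just inside (-0.15 ± 0.13). Des, which muscle fibres also make and which held most of the list's transcripts, differed by 0.02 ± 0.10 there. The whole list summed to 488 to 844 CPM in the first tip and 535 to 1191 CPM just inside it.

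**Figure D3:**
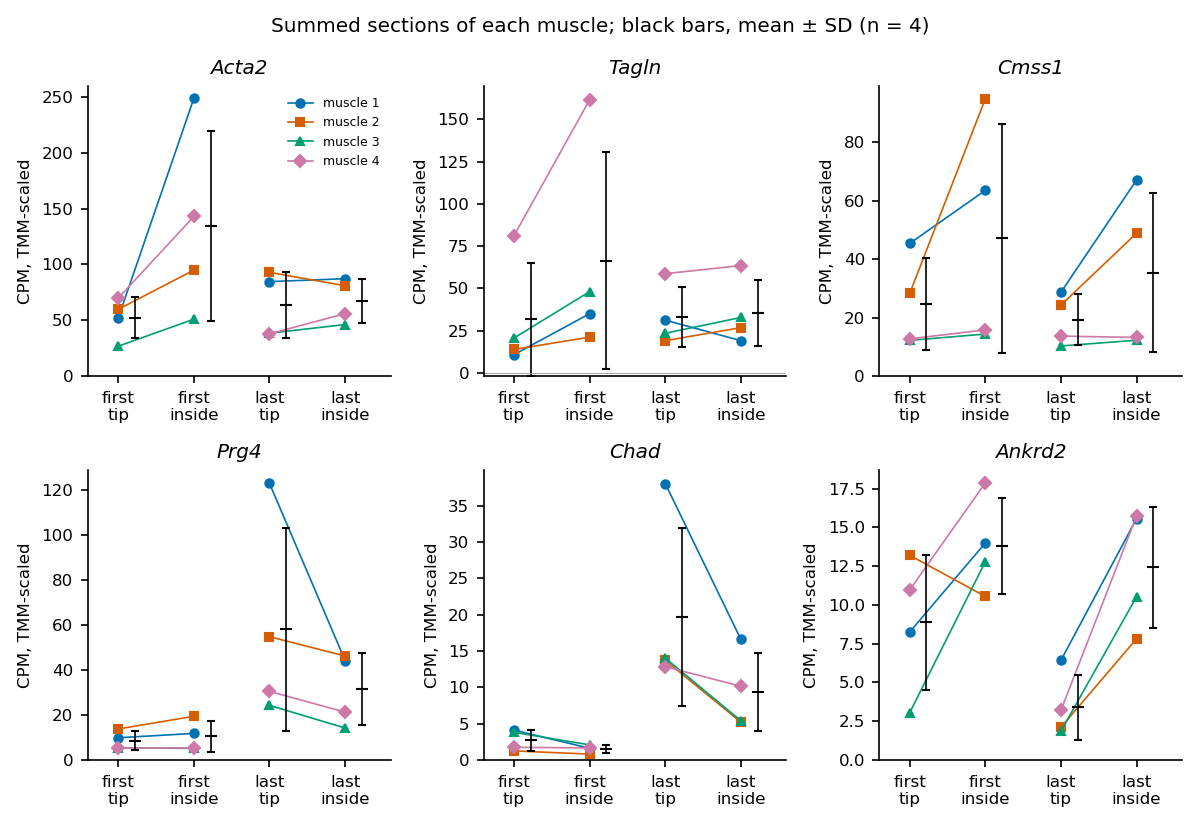
Levels (CPM, TMM-scaled) of 6 called genes in the summed sections of each muscle, with each tip left of the tissue just inside it and lines joining the zones of 1 muscle; black bars give the mean and SD (n = 4). Acta2 and Tagln slope upward from the first tip to the first just-inside zone in all 4 muscles, and Prg4 and Chad are higher in the last tip than just inside in all 4.

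Lubricin stood highest in the last tip. Prg4 encodes this proteoglycan, which coats gliding surfaces of joints and tendons, and lies at chr1:150449412-150466165 on the minus strand, opposite Tpr. As for Tagln, reads of the opposite gene cannot be told apart from those of Prg4. The last tip held 123, 54.9, 24.3 and 30.5 CPM in muscles 1 to 4, against 44.3, 46.3, 14.2 and 21.3 CPM just inside. Muscles 1 and 2 were above muscles 3 and 4 in both zones, and in each muscle the tip was the higher zone. The log2 difference was 0.92 ± 0.17 (SE; edgeR adjusted p = 0.0131), with per-muscle differences of 1.45, 0.24, 0.73 and 0.50.

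Prg4 was also above its mid-muscle level just inside that end. The rest of the muscle had 31.6, 22, 9.66 and 8.94 CPM in muscles 1 to 4, so the order in every muscle was last tip, last just inside, rest. At the first end no such rise was measured, with 9.90, 13.8, 5.34 and 5.26 CPM in the tip and 11.8, 19.5, 5.22 and 5.40 CPM just inside (-0.21 ± 0.30, edgeR adjusted p = 0.91). The difference between the ends was -1.13 ± 0.34 and did not pass the test (edgeR adjusted p = 0.78). Without muscle 1 the last-end difference was 0.48 and not called, and without the outermost section of each end it was 0.83 (edgeR adjusted p = 0.16). With every section weighted equally in limma it was 0.57 (adjusted p = 0.41). It was 1.04 in muscles 1 and 2 and 0.66 in muscles 3 and 4, and called in neither pair alone.

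Chad, which encodes chondroadherin, a leucine-rich repeat protein of cartilage and tendon matrix, followed the same course at a lower level. It lies at chr11:94565047-94569127 on the plus strand, opposite Acsf2, whose reads cannot be told apart from those of Chad. Its 38.1, 13.7, 14 and 12.9 CPM in the last tip stood against 16.6, 5.21, 5.41 and 10.2 CPM just inside in muscles 1 to 4. The tip was higher in 4 of 4 muscles, least so in muscle 4, where the log2 difference was 0.31 against 1.15 to 1.24 in the others. Over all muscles it was 1.11 ± 0.23 (SE; edgeR adjusted p = 0.0284).

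Those levels rest on 121 transcripts in the last tip and 95 just inside it, while the first end had 16 in each zone. A Chad transcript was seen in 17 of 20 last-tip sections, which were shallower, and in 17 of 17 sections just inside. At the first end 9 of 19 tip sections and 9 of 16 sections just inside had one. The call at the last end was lost when muscle 1, 2 or 3 was left out, with log2 differences of 1.01, 1.08 and 1.02 and edgeR adjusted p of 1.00, 0.16 and 0.099. It was also lost without the outermost sections (1.00, edgeR adjusted p = 0.17) and with every section weighted equally in limma (0.39, adjusted p = 0.74), and it was 1.24 in muscles 1 and 2 and 0.88 in muscles 3 and 4, called in neither pair alone.

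The 250 bases before the Chad start (chr11:94564797-94565046, plus strand, RefSeq GRCm38.p6) are shown because Chad had the steepest called rise in a tip. They held 1 match to CANNTG, the E-box that basic helix-loop-helix factors such as scleraxis and the myogenic factors bind, which 66.2% of all promoters also held (the motif reads the same on both strands). It begins 49 bases before the start and is in capitals.
Chad: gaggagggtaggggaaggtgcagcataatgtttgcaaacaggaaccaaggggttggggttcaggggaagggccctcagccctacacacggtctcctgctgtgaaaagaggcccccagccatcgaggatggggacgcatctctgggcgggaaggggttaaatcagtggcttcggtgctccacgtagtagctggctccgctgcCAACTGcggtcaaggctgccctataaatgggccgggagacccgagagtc
The table holds no window for Prg4.

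Prg4 and Chad belong to a list of 14 tendon genes, of which 5 had enough transcripts to be tested. At the last end 2 of the 5, the same Prg4 and Chad, were called higher and none lower. Among all 6103 genes 2 were called higher (0.0328%) and 1 lower (0.0164%). The median log2 difference of the 5 was 0.92, the value of Prg4 itself, beside -0.01 over all genes tested. However, 9 members fell below the count filter and the 5 do not stand for the list. The list was chosen with earlier results of these data known, so the calls within it are not independent support for a change of tendon genes. Angptl7, a secreted protein of tendon and eye, had 17.3, 14.8, 3.74 and 3.21 CPM in the last tip and 8.65, 7.17, 0.854 and 2.54 CPM just inside (1.04 ± 0.33, edgeR adjusted p = 0.61). Fmod, the collagen-binding proteoglycan fibromodulin, had 25.2, 5.28, 7.48 and 13.7 CPM there and 13.1, 1.96, 5.12 and 14.2 CPM just inside (0.66 ± 0.28, edgeR adjusted p = 0.83). In both the tip was the higher zone in muscles 1 to 3. In muscle 4 Angptl7 was also higher in the tip, on 4 transcripts against 5 just inside, and Fmod was level. Chad, Fmod and Angptl7 had 16, 17 and 5 transcripts in all first tips, against 121, 81 and 57 in all last tips. They thus passed the count filter mainly on last-end counts.

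Fmod also differed at the first end, with 2.47, 1.88, 6.10 and 1.32 CPM in the tip and 0.538, 0, 0.783 and 1.25 CPM just inside, but on only 17 and 7 transcripts (1.77 ± 0.67, edgeR adjusted p = 0.59). Thbs4, a thrombospondin of the tendon attachment, did not pass the test at either end, with 49.9, 26.4, 40.2 and 43.4 CPM in the last tip and 42.5, 29.3, 33 and 38.6 CPM just inside (0.19 ± 0.15, edgeR adjusted p = 0.96). Thbs4 had 28, 23.2, 29.7 and 39.9 CPM in the first tip and 26.9, 18.7, 37.3 and 31.6 CPM just inside (0.07 ± 0.16, edgeR adjusted p = 0.95). The tenocyte genes that define the lineage were scarce. Scx, the tendon transcription factor scleraxis, had 11 transcripts in all first tips and 15 just inside, and 12 in all last tips and 23 just inside. Tnmd, the tendon membrane protein tenomodulin, had 10 and 6 at the first end and 21 and 24 at the last, in the same order. Mkx, the tendon homeobox gene, had 0 and 1 at the first end and 14 and 18 at the last.

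**Figure D4:**
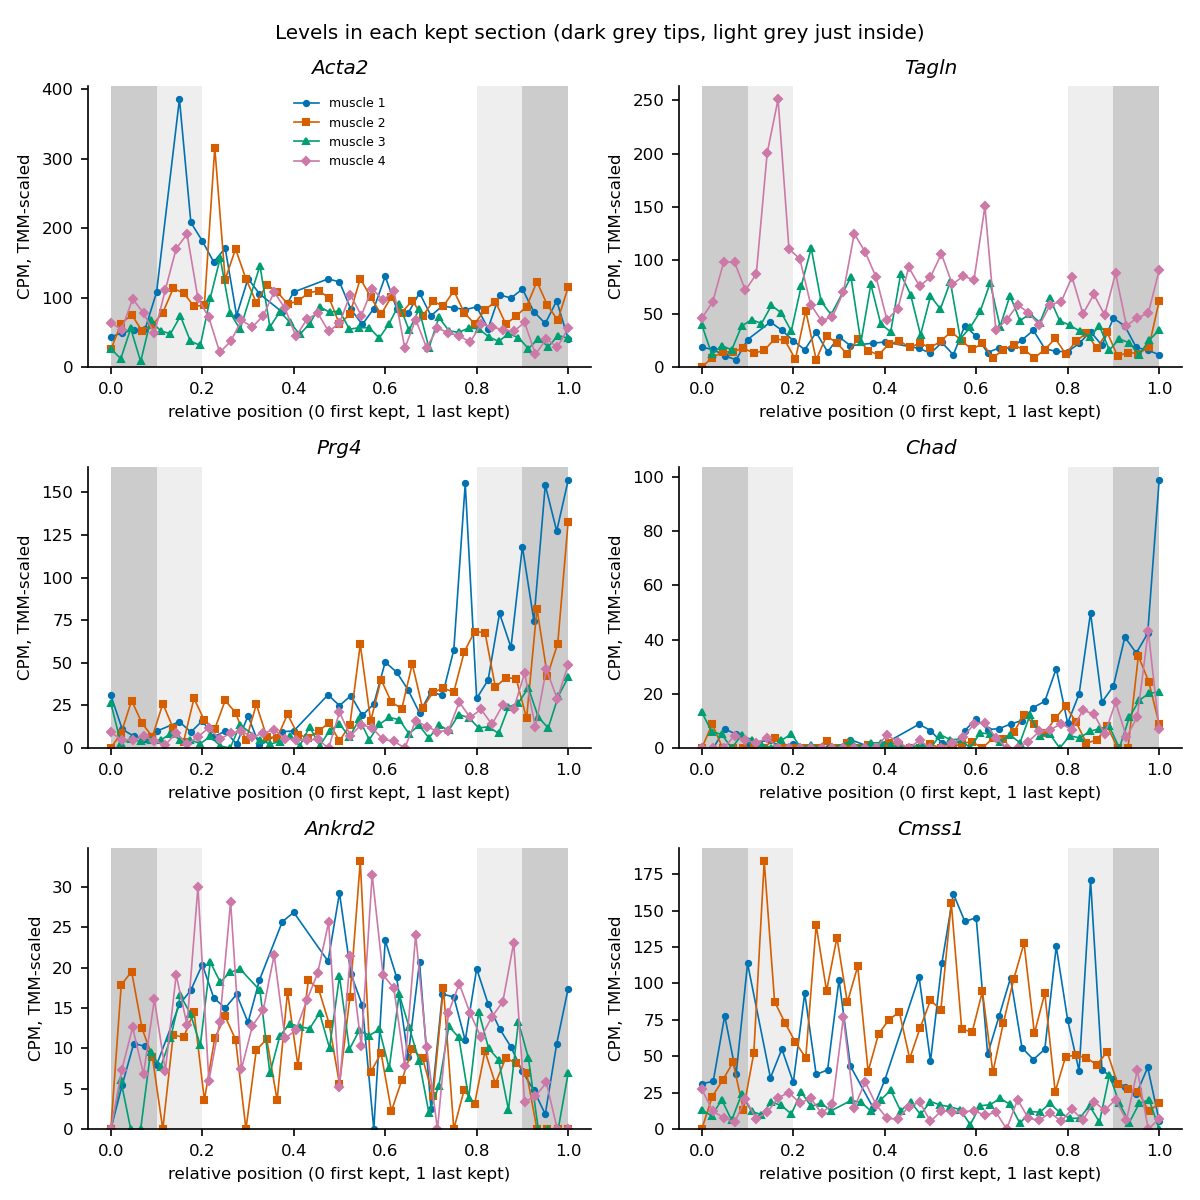
Level (CPM, TMM-scaled) of the 6 genes in every kept section against relative position, with tips in dark grey and the tissue just inside in light grey, 1 line per muscle. Prg4 and Chad climb toward position 1, Acta2 and Tagln peak between positions 0.1 and 0.3 in single sections of some muscles, and Ankrd2 is low in the last tip.

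Ankrd2 was called lower in the tips with both ends averaged and at the last end alone. It encodes a muscle ankyrin repeat protein that binds titin at the I-band, shuttles to the nucleus and is raised by stretch, and lies at chr19:42036000-42045110 on the plus strand. In the last tip it stood at 6.43, 2.11, 1.87 and 3.21 CPM in muscles 1 to 4, against 15.6, 7.82, 10.5 and 15.7 CPM just inside. The tip was the lower zone in every muscle, on 13, 2, 2 and 4 transcripts in the tips of muscles 1 to 4. The log2 difference was -1.72 ± 0.33 (SE; edgeR adjusted p = 0.0146), on 21 transcripts in the last tips and 125 just inside.

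At the first end the direction was shared by 3 of 4 muscles. The tip had 8.25, 13.2, 3.05 and 11 CPM and the zone just inside 14, 10.5, 12.8 and 17.9 CPM, with muscle 2 reversed (-0.64 ± 0.26, edgeR adjusted p = 0.65). The level just inside was near that of the rest of the muscle, which had 18.3, 9.48, 12.5 and 16.3 CPM. Averaged over both ends the difference was -1.18 ± 0.21 (edgeR adjusted p = 0.0038). The last-end call was lost without muscle 1 (-2.25, edgeR adjusted p = 0.14), muscle 3 (-1.60, 0.080) or muscle 4 (-1.55, 0.30), and with tips widened to 15% of the length it was -0.68 and not called. The both-ends call was lost without muscle 3 (-0.99, edgeR adjusted p = 0.070) or muscle 4 (-1.08, 0.064). Within the same pairs of muscles the last-end difference was -1.33 in muscles 1 and 2 and -2.35 in muscles 3 and 4, called in neither, and the both-ends difference was -0.72 and not called in muscles 1 and 2 and -1.70 and called in muscles 3 and 4.

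The 223 bases before the GENCODE start of Ankrd2 (chr19:42035777-42035999, plus strand, RefSeq window of GRCm38.p6) are shown because it was the muscle fibre gene with the largest called fall. They held 3 matches to CANNTG, in capitals, which begin 140, 127 and 96 bases before the RefSeq start, and no CArG box with up to 1 mismatch.
Ankrd2: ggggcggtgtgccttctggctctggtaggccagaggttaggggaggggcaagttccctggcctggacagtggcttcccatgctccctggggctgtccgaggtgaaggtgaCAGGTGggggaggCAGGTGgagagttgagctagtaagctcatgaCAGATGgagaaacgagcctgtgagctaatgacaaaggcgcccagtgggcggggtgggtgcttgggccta

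Ankrd2 was the only one of 18 tested genes of the stretch and Z-disc list to be called, lower with both ends averaged and at the last end, and the list's median was -0.08 with both ends averaged. Its relative Ankrd1, a stress-induced ankyrin repeat protein that is also enriched at the myotendinous junction, pointed the other way at the first end. It had 19, 18.8, 52.6 and 4.83 CPM in the first tip and 5.38, 7.30, 13.6 and 7.89 CPM just inside. The tip was the higher zone in muscles 1 to 3 and the lower in muscle 4, and the difference was not called (1.24 ± 0.35, edgeR adjusted p = 0.28). At the last end muscle 2 alone stood out, with 28.5 CPM in the tip and 9.78 CPM just inside, against 4.68 to 5.62 CPM in the other tips. Of 9 myotendinous junction genes tested none was called, and their median was 0.11 at the first end and -0.06 at the last. Col22a1, the collagen that marks this junction, was too scarce to be tested, with 19 transcripts in all first tips and 22 just inside, and 17 in all last tips and 40 just inside.

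The remaining genes called with both ends averaged, Cmss1 and Gm48099, carried their level mostly in muscles 1 and 2. Cmss1, a nucleolar protein of the small ribosomal subunit machinery in yeast, lies at chr16:57302000-57606864 on the minus strand and overlaps Filip1l, 4921517D16Rik and Gm49579 on the opposite strand. Reads of these genes cannot be told apart from those of Cmss1. Cmss1 had 45.4, 28.3, 12.2 and 12.7 CPM in the first tip and 63.5, 94.9, 14.4 and 15.8 CPM just inside, and 28.7, 24.3, 10.3 and 13.7 CPM in the last tip and 67.1, 48.9, 12.2 and 13.2 CPM just inside. The tips were lower in muscles 1 and 2 at both ends, and nearly level in muscles 3 and 4. The difference was -0.84 ± 0.14 (SE; edgeR adjusted p = 0.00262) over all muscles. It was -1.12 in muscles 1 and 2 (edgeR adjusted p = 0.0013) and -0.18 in muscles 3 and 4 (0.97). The call was lost without muscle 1 (-0.77, edgeR adjusted p = 0.13) or muscle 2 (-0.59, 0.099), and with tips of 15% of the length it was -0.28.

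Gm48099, a predicted gene with no known role (chr14:19271274-19282822, plus strand), was named after its values were seen. It had 43.7, 24.5, 4.57 and 4.83 CPM in the first tip and 31.2, 93.3, 11 and 15 CPM just inside, and 17.8, 15.8, 4.68 and 5.62 CPM in the last tip and 43.2, 41.7, 3.99 and 6.09 CPM just inside. Averaged over both ends the tip was lower in 4 of 4 muscles, but the first tip of muscle 1 and the last tip of muscle 3 stood above the tissue inside them. The difference was -1.02 ± 0.19 (edgeR adjusted p = 0.00617), and without muscle 2 it was -0.64 and not called (edgeR adjusted p = 0.33). It was -1.05 in muscles 1 and 2 and -0.71 in muscles 3 and 4, called in neither pair alone.

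No other listed gene was called, and the lists are described by their counts and medians beside a median of 0.00 over all genes tested with both ends averaged, where 3010 of 6103 genes had a positive difference. Of 15 tested genes of the fibrillar collagen and matrix list 3 were positive, with a median of -0.33. The collagen Col3a1 came nearest, with 28.9, 22.6, 104 and 111 CPM in the first tip and 40.4, 34.1, 116 and 153 CPM just inside, and 37.6, 24.3, 75.8 and 95.6 CPM in the last tip and 42.2, 34.5, 139 and 113 CPM just inside. It was lower in all 8 tips and missed the threshold at -0.42 ± 0.09 (SE; edgeR adjusted p = 0.054). Col1a1, the main tendon and bone collagen, had 128, 48.6, 79.5 and 83.6 CPM in the last tip and 80.9, 24.8, 66.9 and 101 CPM just inside, higher in the tip in muscles 1 to 3 (0.40 ± 0.20, edgeR adjusted p = 0.88). In the first tip Col1a1 had 26.4, 11.9, 74 and 53.5 CPM, against 24.8, 23.5, 72.8 and 83.5 CPM just inside, lower in muscles 2 and 4 and nearly level in the others (-0.34 ± 0.22, edgeR adjusted p = 0.80). Averaged over both ends Col1a1 differed by 0.03 ± 0.15.

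Most markers of interstitial fibroblasts, basement membrane, capillaries and blood cells had negative differences with both ends averaged, and none of them was called. All 8 tested genes of the fibro-adipogenic progenitor list, the interstitial fibroblasts of muscle, were negative with both ends averaged (median -0.27), and so were all 6 tested basement membrane genes (median -0.19). Apod, a lipid carrier of such fibroblasts, had 2.47, 2.51, 2.29 and 2.63 CPM in the first tip and 6.46, 6.49, 6.53 and 7.89 CPM just inside. Those levels rest on 16 and 64 transcripts (-1.48 ± 0.37, edgeR adjusted p = 0.16). At the last end Apod had 48 transcripts in the tips and 75 just inside, and in muscle 2 it had 14 and 11. Cdh5, the junction cadherin of endothelium, had 0.825, 0.628, 2.29 and 3.07 CPM in the first tip and 3.77, 5.68, 9.66 and 6.65 CPM just inside, on 12 and 67 transcripts (-1.79 ± 0.40, edgeR adjusted p = 0.10). The median of the 9 tested capillary genes was -0.12 at that end, and Flt1, a receptor for vascular endothelial growth factor, differed by -0.10 ± 0.16.

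Red cell transcripts differed in direction between muscles at the first end. Hbb-bs, an adult beta globin, had 337, 753, 156 and 665 CPM in the first tip and 708, 577, 257 and 447 CPM just inside, lower in the tips of muscles 1 and 3 and higher in muscles 2 and 4 (-0.04 ± 0.19). In the last tip it had 210, 125, 70.2 and 94 CPM, against 352, 167, 102 and 123 CPM just inside, lower in 4 of 4 muscles but not called (-0.57 ± 0.21, edgeR adjusted p = 0.75). Globin genes are near-identical copies, and reads may be split between them. Of 5 tested macrophage genes 4 were negative with both ends averaged (median -0.49), and none was called.

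**Figure D5:**
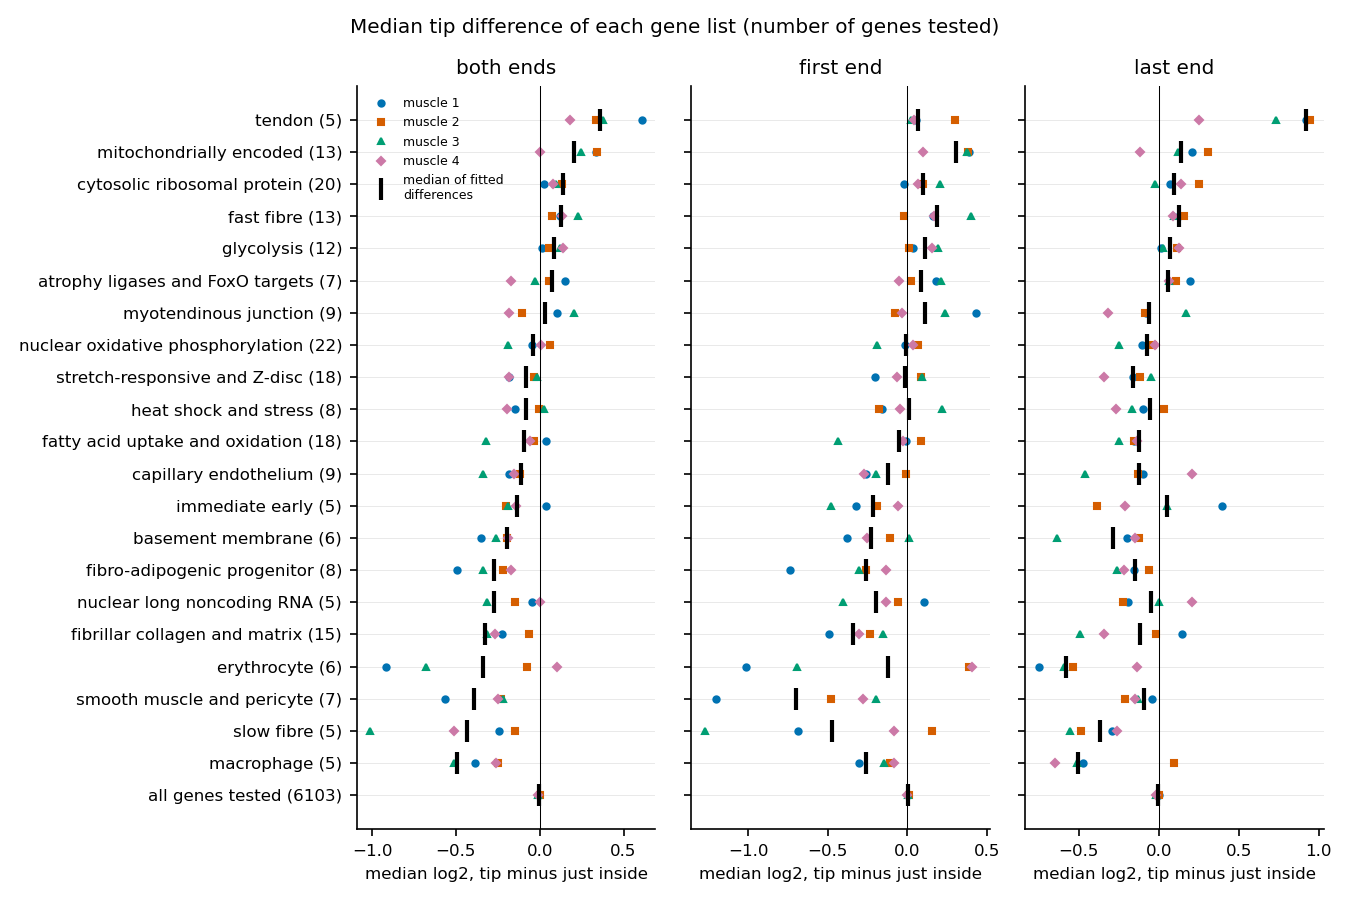
Median log2 difference, tip minus just inside, of each list with at least 5 genes tested (number in brackets), for both ends, the first end and the last end; symbols give each muscle and black bars the median of the fitted differences. The 5 tested tendon genes are highest with both ends averaged (0.36), from 0.07 at the first end and 0.92 at the last. Smooth muscle and pericyte genes are lowest at the first end (-0.70), and all genes tested sit at 0.

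Among fibre genes most differences were positive in the fast set and negative in the slow set, and none was called. Of 13 tested fast fibre genes 12 were positive with both ends averaged (median 0.13), and Myh4, the fastest myosin heavy chain, differed by 0.18 ± 0.08 (edgeR adjusted p = 0.55). Several genes of the list were saturated in some sections (at least 90% of the possible molecular tags used), which makes their differences uncertain. Atp2a1 was saturated in 139 of 171 kept sections, Tnnt3 in 12 and Myh4 in 1. All 5 tested slow fibre genes were negative (median -0.44). Myoz2, a calcineurin-binding Z-disc protein of slow fibres, had 4.95, 18.2, 0.762 and 3.51 CPM in the first tip and 12.4, 16.2, 8.09 and 6.65 CPM just inside, with muscle 2 reversed. In the last tip it had 3.46, 5.28, 3.74 and 3.21 CPM, against 11.4, 7.82, 5.98 and 4.06 CPM just inside, and over both ends it differed by -0.85 ± 0.25 (edgeR adjusted p = 0.32).

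Myh2, the myosin of fast oxidative fibres, showed how far single muscles can depart. It had 328, 700, 31.3 and 98.7 CPM in the first tip and 445, 515, 175 and 127 CPM just inside. Muscle 3 had the deepest gap, with a log2 difference of -2.44, and muscle 2 the reverse, at 0.44. In the last tip it had 322, 159, 144 and 82.8 CPM, against 638, 375, 199 and 99 CPM just inside, lower in 4 of 4 muscles without a call (-0.76 ± 0.24, edgeR adjusted p = 0.61).

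The lists of energy metabolism had medians from -0.10 to 0.21 with both ends averaged. Of 18 tested genes of fatty acid uptake and oxidation 2 were positive with both ends averaged (median -0.10), and Lpl, the lipase that releases fatty acids from lipoproteins, had 170, 131, 193 and 112 CPM in the last tip and 213, 209, 230 and 130 CPM just inside (-0.35 ± 0.13, edgeR adjusted p = 0.75). Of 12 tested glycolysis genes 10 were positive (median 0.08). The 22 nuclear genes of oxidative phosphorylation had a median of -0.04, while the 13 mitochondrially encoded genes had one of 0.21, with 10 positive, most of them saturated. Ribosomal protein genes had a median of 0.14 with 16 of 20 positive. None of these genes was called. Nor was any of the 3 neuromuscular junction genes tested (median 0.06), the 5 immediate early genes (-0.14), the 8 heat shock genes (-0.08), the 7 atrophy genes (0.07) or the 5 nuclear long noncoding RNAs (-0.27), all with both ends averaged.

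The calls depended on the test used. DESeq2 called no gene in any of the 3 comparisons, with 251, 186 and 137 genes at an unadjusted p under 0.05 for both ends, the first end and the last end. None of the 9 called differences changed sign under any of the 20 alternatives run.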

How the data were processed

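Serial sections of 4 muscles were sequenced with CEL-Seq2 primers that carry an 8-base section barcode and a 6-base molecular tag (UMI), per the labels' protocols. The deposited count tables hold estimated counts per gene and section that the values show to be UMI counts corrected for collisions over 4096 possible tags. STAR 2.7.7a and GRCm38 are named in the submitters' processing notes. The counter and its handling of strand are not stated in the sources used. The authors' filtered tables hold a scaled signal and were used only to find the kept sections. For each muscle and zone the counts of the kept sections were added up, then rounded to whole numbers. Entries naming several genes (0.58% to 0.93% of transcripts) were left out of the tests. The 16 sums were fitted in edgeR 4.0.16 (R 4.3.3; TMM, filterByExpr, quasi-likelihood F-test, Benjamini-Hochberg) with muscle as a block and zone as the factor. Of 28989 single-gene entries 28895 matched GENCODE M21 by identifier. Per-muscle differences used log2 CPM with a prior count of 2. DESeq2 1.42.0 and limma 3.58.1 gave alternatives. The biological coefficient of variation was 9.92%. Tested on simulated data, the both-ends comparison recovered 75% of 100 genes changed by 0.5 (log2) and 99% of 100 changed by 1. It made 7 false calls among 5723 genes. Recovery was not tested for a single end or by gene level, and a gene not called may still differ.

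Muscle totals were 17256419 to 27174920 transcripts. The genes named are the 10 largest called rises and falls of each comparison that share a sign in every muscle and average 10 CPM or more, and members of the lists. The members and lists were chosen with earlier results of these data known. The alternatives are another normalization, tool, filter, zone width, block, weighting, depth, gene exclusion, barcode pair and each muscle left out.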

Additional observations from a re-analysis of the deposited data

Results flagged for a closer look

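In 5 of 102 groups of 4 per-muscle values 1 muscle stood apart from the other 3 by Dixon's criterion for 4 values (the gap to the nearest value over the whole range), and chance gives about 1 in 20. Chad at the last end was 0.31 in muscle 4 (log2, tip minus just inside), below the other muscles. The median of the tendon list at the first end was 0.30 in muscle 2, above the others, and that of the basement membrane list at the last end was -0.63 in muscle 3, below the others. The median of the smooth muscle and pericyte list with both ends averaged was -0.57 in muscle 1, below the others, and that of the mitochondrially encoded list at the first end was 0.0968 in muscle 4, below the others.

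The barcode next to the kept range, which the comparisons do not use, also held transcripts at every end. Outside the first end there were 64745, 41292, 20508 and 97763 transcripts in muscles 1 to 4, and outside the last end 103098, 70433, 41803 and 91793. These amount to 23.6% to 73.2% of the outermost kept section of the same end. Outside the last end Prg4 had 29, 10, 0 and 2 transcripts and Chad had 11, 9, 0 and 11 in muscles 1 to 4. No control samples were at hand to set these against, and whether those barcodes held tissue was not tested.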

How the results depend on the processing

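Counts of called genes depended on the settings. With both ends averaged 4 genes were called, against 0 by DESeq2 (251 at an unadjusted p under 0.05), 41 with no count filter, 20 with tips of 15% of the length, 50 with just inside widened to 0.3 and 0.7, 18 with a block per muscle and end, 0 with no muscle block (85 unadjusted), 177 with equal section weights in limma and 1 in muscles 1 and 2; leaving out 1 muscle gave 4 to 9. At the first end 2 were called, against 0 by DESeq2 (186), 15, 7 and 28 with the filter and width changes in that order, 0 with no muscle block (77), 7 in limma, 1 with sums thinned and 5 in muscles 3 and 4; leaving out 1 muscle gave 1 to 4. At the last end 3 were called, against 0 by DESeq2 (137), 18, 7 and 10 with the filter and width changes, 1 without the outermost sections, 11 with 8 sums per fit, 0 with no muscle block (52), 0 with sums thinned (202) and 0 in muscles 3 and 4 (293); leaving out 1 muscle gave 0 to 3, with 0 without muscle 1 (238). For the difference between the ends 0 were called, against 5 with no filter, 2 with just inside widened, 1 with sums thinned and 5 in muscles 1 and 2; leaving out 1 muscle gave 0 to 2. List members called numbered 5, against 0 by DESeq2, 31 with no filter, 13 and 27 with the width changes, 3 without the outermost sections, 10 with 8 sums, 12 with a block per muscle and end, 0 with no muscle block, 22 in limma, 2 with sums thinned and 3 in muscles 1 and 2; leaving out 1 muscle gave 2 to 8. The cause of these changes was not tested. Equal section weights moved the median of all genes to -0.27 with both ends averaged, -0.30 at the first end and -0.23 at the last, and no filter moved it to -0.13 with both ends averaged and -0.12 at the last end. Of 20 alternatives each, Acta2 was called in 16 with both ends averaged and 17 at the first end, Tagln in 14, Ankrd2 in 14 with both ends averaged and 11 at the last end, Cmss1 in 14, Gm48099 in 15, Prg4 in 11 and Chad in 10. Tip sections held a median of 376484 transcripts at the first end, against 602098 just inside, and 196968 at the last end, against 484411 just inside, and scarce genes below the count filter could not be tested at this depth.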
